A study of Mus musculus with 8 samples.

Results

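The comparison described here sets a single library of proliferating mouse neural progenitor cells carrying a hairpin against Cic (the library named CIC) beside each of the 2 non-targeted (NT) proliferating libraries, named TRC and GFP. A gene was counted as a difference that holds against both controls when its level in CIC lay more than 1 log2 unit above, or more than 1 log2 unit below, each of TRC and GFP. Levels were compared as log2(FPKM + 1), where FPKM is fragments per kilobase of transcript, scaled to library size. Of 20793 rows (genes) in the deposited table, 11968 reached 1 FPKM in at least 2 of the 8 libraries and were kept. Among these, 434 lay above both controls (3.63% of kept genes) and 676 lay below both (5.65%). The remaining kept genes were within 1 log2 unit of at least 1 control, or on opposite sides of the controls.

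All cells were progenitors from mouse brain of mixed FvB/C57BL/6 background, transduced with lentiviral hairpins and selected for 3 days in puromycin. The proliferating cells (TRC, GFP, CIC and a library with a FUBP1 hairpin) were grown in N2 medium with EGF and bFGF at 20 ng/ml each. The differentiating cells (NT libraries 7 and GFP-D, CIC-D and FUBP1-D) spent 5 days in neurobasal medium with B27. The labels do not give the hairpin sequences, the age or sex of the animals, or whether the NT libraries came from separate cultures, and 1 hairpin library per state stands for Cic knockdown. An exact permutation of 1 library against 2 cannot give a p below 0.333. The test used limma over all 8 libraries, with 2 residual degrees of freedom from the NT pairs, and so assumes that the single CIC library varies as an NT library does. A p-value here reflects only how far NT libraries of a state spread, which can be technical.

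Cic encodes capicua, a DNA-binding transcriptional repressor of the HMG-box class that acts with the ataxin-1 proteins and with histone deacetylase complexes. Receptor tyrosine kinases such as the EGF and FGF receptors signal through RAS and ERK, and active ERK relieves the repression by capicua. Its best known targets are the ETS factors Etv1, Etv4 and Etv5 and the ERK feedback regulators of the Dusp, Spry and Spred families. CIC and FUBP1 are both mutated in oligodendroglioma, a glioma with features of glial progenitors.

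The targeted gene was examined first. Cic (chromosome 7, 26067198 to 26079167, mm9) was at 39.4 FPKM in TRC, 33.8 in GFP and 13.3 in CIC. The CIC library thus held 33.6% of the TRC level and 39.2% of the GFP level, below both controls without overlap. The fitted log2 difference was -1.40 (SE 0.32), and it did not pass limma's test over all genes (adjusted p = 0.278). In the differentiating state Cic was at 42.0 FPKM in 7, 35.2 in GFP-D and 25.6 in CIC-D, or 60.9% and 72.5% of the controls. Both CIC libraries thus retained part of the Cic transcript, and both lay below their controls.

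The controls themselves were not close to each other. TRC and GFP differed by more than 1 log2 unit in 1937 kept genes, while CIC differed from TRC in 2440 and from GFP in 2324. Across kept genes the Pearson correlation was 0.891 between CIC and TRC, 0.896 between CIC and GFP, and 0.914 between TRC and GFP. These correlations run across genes, which are not independent replicates. Fubp1, not the target in any of these 3 libraries, was at 50.2 FPKM in TRC, 12.4 in GFP and 34.8 in CIC. The library labelled FUBP1 held 34.8 FPKM as well, below TRC but above GFP. Its targeted gene thus goes against its label relative to GFP only. FUBP1-D, with 21.6 FPKM of Fubp1, lay slightly below library 7 (24.8) and GFP-D (25.4). Across kept genes the library labelled FUBP1 correlated with TRC at 0.98. Its values are given below under that label. Sequencing depth is not known from the files. FPKM sums ran from 505977 in CIC to 541608 in GFP, and 10702 to 11077 genes reached 1 FPKM in the 3 libraries. The median difference over kept genes was -0.09 for CIC minus TRC and -0.06 for CIC minus GFP. Markers of other cell types were examined as lists. Of 16 microglial markers 3 passed the filter, of 12 endothelial markers 1, and of 32 neuronal markers 10. Sums here run over all markers of a list, passed or not. They were 27.9, 104 and 68.2 FPKM for microglia in TRC, GFP and CIC. For neurons they were 709, 91.8 and 321 FPKM, with Gap43 the highest neuronal marker in CIC. Of 16 mesenchymal and pericyte markers 5 passed. All 16 summed to 101, 139 and 139 FPKM in TRC, GFP and CIC, with Prrx1 the highest in CIC and 3 at 0. Of 9 ependymal markers 3 passed, and all 9 summed to 12.8, 12.1 and 4.18 FPKM, with 5 at 0 in CIC. At 0 in CIC were 9 of the microglial, 4 of the endothelial and 9 of the neuronal markers. Their part in the results below was not tested. Progenitor markers were present, with 20 of 23 at 1 FPKM or more in CIC.

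Requiring a difference from both controls left a subset of the genes that differed from either control alone. CIC lay above both controls by any amount in 3763 kept genes (31.4%), below both in 4771 (39.9%), and between or level with a control in 3434. For 394 of the 434 higher genes and 623 of the 676 lower genes, the smaller of the differences from TRC and GFP also exceeded the difference between TRC and GFP. Members were chosen for a smaller difference above 1 log2 unit, so any with TRC and GFP within 1 unit passes automatically. TRC and GFP differed by more than that in 1937 of 11968 kept genes, so these counts are no check on the members. Beyond 2 log2 units lay 86 higher and 115 lower genes. More than 1 log2 unit beyond the library labelled FUBP1 as well lay 318 of the 434 and 527 of the 676. At the edge of the 1 log2 limit, Akirin2 lay just inside on the higher side (smaller difference 1.00, with 46.5, 58.3 and 118 FPKM in TRC, GFP and CIC) and Atg12 just outside (16.3, 21.6 and 44.0 FPKM). On the lower side Ddt lay just inside (154, 175 and 76.7 FPKM) and Hcrtr1 just outside (1.19, 1.07 and 0.035 FPKM). Quantile normalization of the log values gave 462 higher and 453 lower genes, so that 50.5% of the genes beyond both controls were higher in place of 39.1%.

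**Figure D1:**
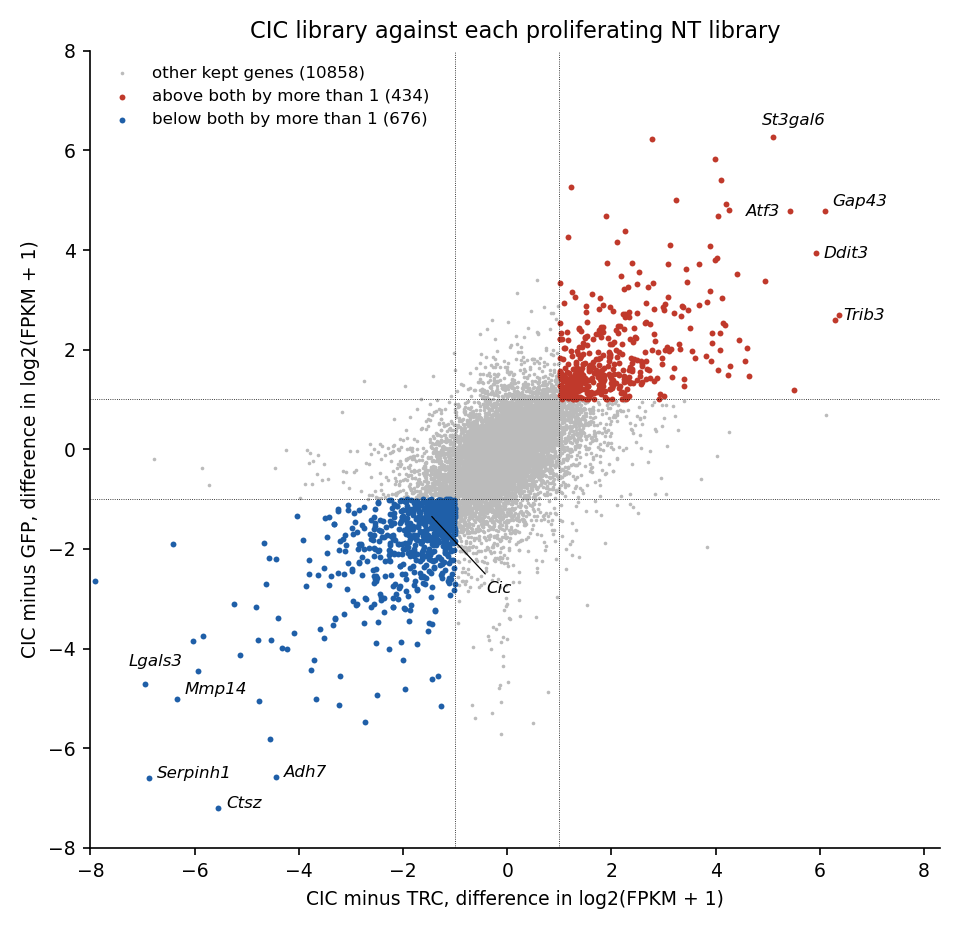
Difference of the CIC library from TRC (x axis) and from GFP (y axis) in log2(FPKM + 1), 1 point per kept gene, with dotted lines at 1 log2 unit either side of 0. Red points (434) lie above both controls and blue points (676) below both, and Serpinh1, Ctsz, Mmp14 and Lgals3 lie farthest toward the lower left.

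The linear model called 1 gene in the proliferating contrast at an adjusted p under 0.05, on the lower side (0.00836% of kept genes), and 0 on the higher side (0.0%). At an unadjusted p under 0.05 there were 1454 genes. The called gene was Serpinh1 (chromosome 7, 106493885 to 106501749, mm9), which encodes HSP47, the chaperone that folds procollagen in the endoplasmic reticulum. It was at 137 FPKM in TRC, 113 in GFP and 0.172 in CIC, and at 111 in the library labelled FUBP1. By limma, Serpinh1 fell by 6.74 log2 units, with an SE of 0.32 (adjusted p = 0.0267). The call was lost when any 1 NT library was left out, when the proliferating libraries were fitted alone, with a pseudocount of 5 FPKM, and without the mean-variance trend. The other genes named below did not pass the test, and their values are given as levels and differences in these libraries.

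The 12 genes farthest above both controls combined stress factors, matrix proteins and proteins of neurons and glia. Among 370 higher genes with at least 5 FPKM in CIC, the 12 were ranked by the smaller of their differences from TRC and GFP, which ran from 3.81 to 5.09. They lay between 16.3 and 659.6 FPKM in CIC and at no more than 42.2 FPKM in either control. The library labelled FUBP1 also lay above both controls in 10 of the 12, and CIC lay more than 1 log2 unit above it in all 12.

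St3gal6, a sialyltransferase of the Golgi (chromosome 16, 58470655 to 58523425, mm9), stood first, with 2.22 FPKM in TRC, 0.427 in GFP and 109 in CIC. The library labelled FUBP1 held 10.1 FPKM of it. The difference was 5.09 from TRC and 6.27 from GFP (fitted value 5.68, SE 1.01, limma adjusted p = 0.22). The stress-induced transcription factor Atf3 (chromosome 1, 192994176 to 193007212) was at 0.943, 2.01 and 82.2 FPKM in TRC, GFP and CIC, and at 1.30 in the library labelled FUBP1. Ddit3, which encodes the stress factor CHOP (chromosome 10, 126727849 to 126733344), was at 9.93, 42.2 and 659.6 FPKM, and at 10.8 in the library labelled FUBP1. For both stress factors, the CIC library alone among the 4 proliferating libraries was high.

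Gap43, a growth cone protein of extending axons (chromosome 16, 42248674 to 42340764), was at 2.68 FPKM in TRC, 8.14 in GFP, 250.5 in CIC and 30.6 in the library labelled FUBP1. Fam5c, also named Brinp3 and expressed in the nervous system (chromosome 1, 148342796 to 148749602), was at 0.453 FPKM in TRC, listed at 0 in GFP, and at 26.9 in CIC and 0.998 in FUBP1. Gabra2, a subunit of the GABA-A receptor (chromosome 5, 71352296 to 71487088), was at 0.167, 0.0163, 16.3 and 3.29 FPKM in TRC, GFP, CIC and FUBP1. These neural genes were low in both controls, intermediate or low in FUBP1 and high in CIC. Lhfpl3, a tetraspan membrane protein found in oligodendrocyte precursors, was at 3.24, 0.192, 66.6 and 11.99 FPKM in the same order. Gucy1b3, a subunit of the soluble guanylate cyclase that senses nitric oxide, was at 1.17, 0.311, 38.8 and 9.29 FPKM. The list of neuronal markers, which holds Gap43, mostly went the other way. Of its 10 kept genes, CIC lay above both controls in 2 and below both in 6. By more than 1 log2 unit these were 1 and 2, and the medians were -0.62 from TRC and -0.24 from GFP. Over all kept genes 31.4% lay above both and 39.9% below both. Celf4, described below among the lower genes, is on the same list.

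Secreted and matrix proteins made up another part of the 12. Tnfaip6 (TSG-6, a hyaluronan-binding protein induced by inflammatory signals) was at 3.93 FPKM in TRC, 1.01 in GFP and 84.3 in CIC. Fbn2, the microfibril protein fibrillin-2, was at 1.25, 0.456 and 36.3 FPKM. Adamts5, a protease that cleaves proteoglycans such as aggrecan and versican, was at 0.313, 0.478 and 19.7 FPKM. The homeobox factor Nkx3-2 completed the set at 1.62, 1.97 and 41.6 FPKM. In each of these genes both controls lay at or below 4 FPKM and the CIC library was far outside their range. The library labelled FUBP1 lay above both controls too, at 10.6 FPKM for Tnfaip6, 9.65 for Fbn2, 3.35 for Adamts5 and 2.27 for Nkx3-2.

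The 12 genes farthest below both controls were mainly secreted, cell-surface and lysosomal proteins. They were ranked among 489 lower genes with at least 5 FPKM in both controls, and their smaller differences ran from 3.84 to 6.60 in size. They lay between 0.0132 and 16.1 FPKM in CIC and at 19.9 FPKM or more in both controls. The library labelled FUBP1 also lay below both controls in 8 of the 12, and CIC lay more than 1 log2 unit below it in all 12.

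After Serpinh1 came Ctsz, the lysosomal carboxypeptidase cathepsin Z (chromosome 2, 174252995 to 174264493), at 51.6 FPKM in TRC, 165 in GFP and 0.126 in CIC. Mmp14, the membrane-anchored matrix metalloproteinase MT1-MMP (chromosome 14, 55050441 to 55060095), was at 81.3, 31.7 and 0.0132 FPKM. The library labelled FUBP1 held 23.7 FPKM of Ctsz and 33.4 FPKM of Mmp14. For both genes the CIC value lay far under those of the other 3 proliferating libraries. Lgals3, the galactose-binding lectin galectin-3, was at 273, 56.4 and 1.20 FPKM in TRC, GFP and CIC, and at 111 in FUBP1. Fitted log2 differences were -6.37 for Ctsz (SE 0.81), -5.68 for Mmp14 (SE 0.61) and -5.83 for Lgals3 (SE 0.99), with limma adjusted p-values of 0.21, 0.205 and 0.21.

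Spp1 (osteopontin, a secreted ligand of integrins and CD44) was at 465 FPKM in TRC, 564 in GFP, 16.1 in CIC and 235 in FUBP1. Sparcl1 (a matricellular protein of astrocytes), was at 121, 95.4, 5.09 and 63.2 FPKM. Cx3cl1 (fractalkine, a membrane-bound chemokine) was at 173, 86.9, 3.997 and 73.9 FPKM, and Apln (the peptide ligand apelin) was at 166, 35.8, 1.57 and 46.4 FPKM. The library labelled FUBP1 lay below both controls for Spp1, Sparcl1 and Cx3cl1 and between them for Apln, and CIC was the lowest of the 4 libraries for each. Among enzymes, Mme (neprilysin, a membrane peptidase) was at 28.1, 69.3 and 0.241 FPKM in TRC, GFP and CIC. Pde2a, a phosphodiesterase of cyclic nucleotides, was at 130.4, 45.9 and 1.15 FPKM. Adh7, an alcohol dehydrogenase that oxidises retinol, was at 254, 1132 and 10.8 FPKM. The RNA-binding protein Celf4 was at 23.1, 19.9 and 0.289 FPKM. Among all 24 ranked genes other than Serpinh1, limma adjusted p-values ran from 0.205 to 0.313.

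**Figure D2:**
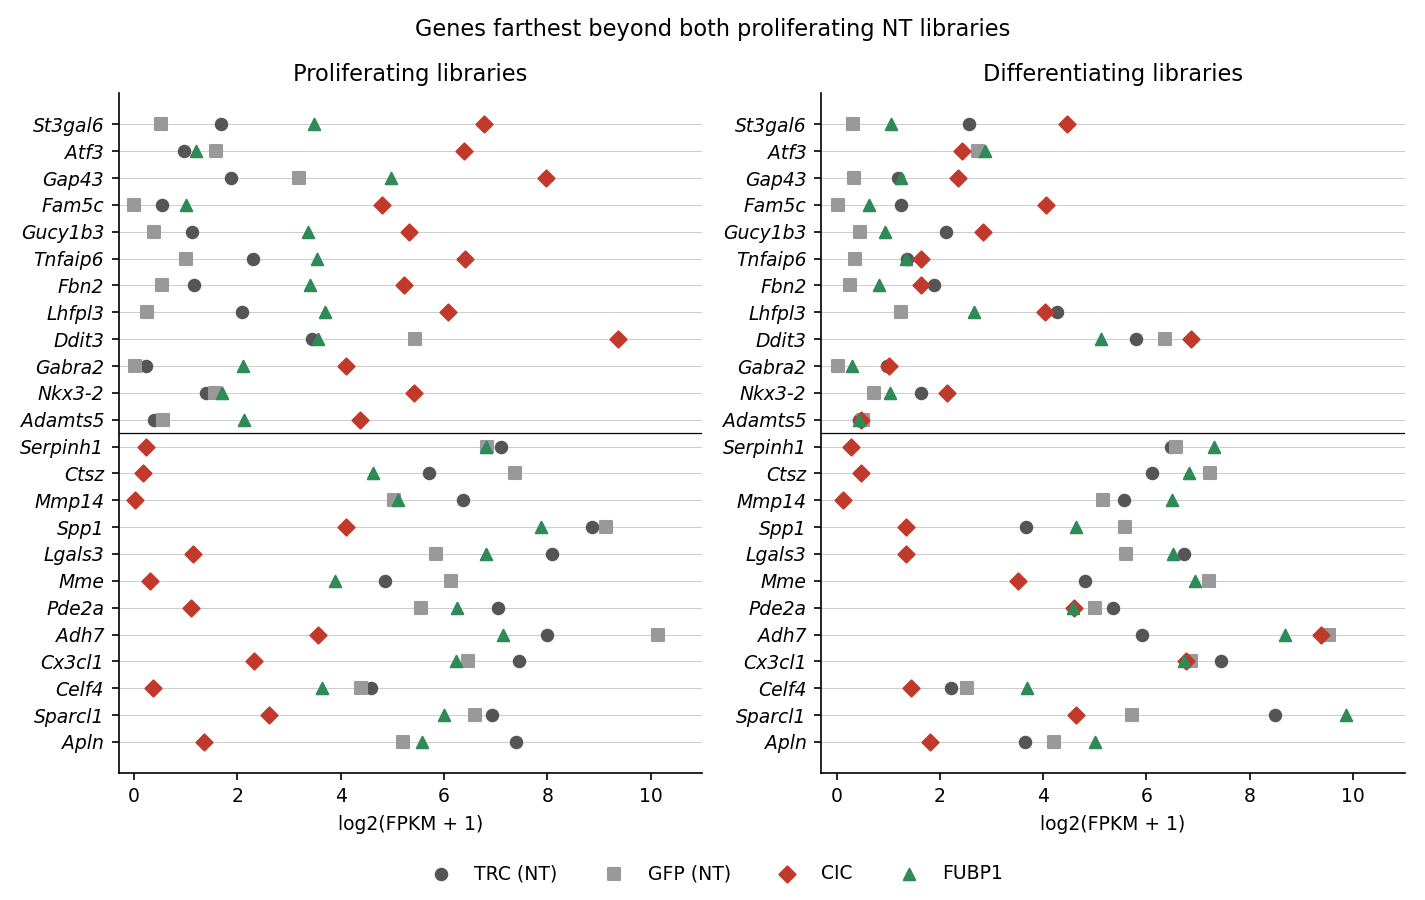
Levels in log2(FPKM + 1) of the 12 genes farthest above and the 12 farthest below both proliferating NT libraries, with proliferating libraries on the left and differentiating libraries on the right (circles and squares NT, diamonds CIC, triangles FUBP1, 1 symbol per library). On the left every CIC diamond lies outside both NT symbols, and on the right Serpinh1, Ctsz, Mmp14 and Lgals3 stay low in CIC-D while Adh7 and Cx3cl1 lie near the NT libraries.

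Some transcripts were close to absent from the CIC library. Of the 676 lower genes, 197 were under 1 FPKM in CIC, and 42 of these reached at least 5 FPKM in both controls. Under 1 FPKM in CIC-D as well were 20 of the 42, and 12 of these had at least 5 FPKM in both differentiating NT libraries too. The 12 were Serpinh1, Ctsz, Mmp14, 1810013D10Rik, Mfsd10, Hdgfrp3, Sel1l3, Plin3, Eml2, Akr1b8, Kcnk1 and Pcdhgb1. Plin3 coats lipid droplets (10.1, 40.7 and 0.183 FPKM in TRC, GFP and CIC), Kcnk1 is a background potassium channel (32.6, 7.85 and 0.355), and Akr1b8 is an aldo-keto reductase (6.89, 8.19 and 0.0727). Mfsd10, a membrane transporter, was at 17.6, 17.8 and 0.542 FPKM, and Hdgfrp3, a relative of hepatoma-derived growth factor, was at 9.55, 10.2 and 0.0685. Eml2, a microtubule-associated protein (7.77 and 8.92 FPKM in the controls), and 1810013D10Rik (12.6 and 20.5 FPKM) were listed at 0 in CIC, which in FPKM tables can be a failed estimate. In CIC-D they were at 0.0725 and 0.214 FPKM. The reverse case was Gtf2i, a general transcription factor listed at 0 in TRC, at 42.0 FPKM in GFP and at 68.3 in CIC. The library labelled FUBP1 held 12.2 FPKM of Eml2, 10.5 of 1810013D10Rik and 15.2 of Akr1b8, so these genes were not near absence there.

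Sel1l3 and 1810013D10Rik adjoin each other on chromosome 5 (53498322 to 53604691 and 53658345 to 53669779, mm9), while Sparcl1 and Spp1 lie farther apart on that chromosome (104508128 to 104543107 and 104864130 to 104870072), with Dmp1 between them. Sel1l3 was at 9.86, 10.6 and 0.102 FPKM in TRC, GFP and CIC. Dmp1, a secreted phosphoprotein of the same family as Spp1, was at 6.45, 24.1 and 4.33 FPKM, below both controls by a smaller difference of -0.48. Higher genes also lay side by side. Adamts1 and Adamts5 adjoin on chromosome 16 (85794073 to 85803360 and 85858402 to 85901370), and Adamts1 was at 2.60, 5.65 and 75.0 FPKM. Gabrg1 lies beside Gabra2 on chromosome 5 (71142286 to 71233856) and was at 0.548 FPKM in TRC, listed at 0 in GFP and at 12.2 in CIC. The next receptor subunits along the chromosome, Gabra4 and Gabrb1, were at 0.114 and 0.0952 FPKM in CIC, no higher than in TRC for Gabra4 and 0.02 log2 units above TRC for Gabrb1. Among kept genes within 100 kb of a higher gene, 5.97% of 720 were themselves higher, against 3.48% of the rest. For lower genes the shares were 7.21% of 1637 and 5.40%. These pairs were chosen after their values were seen.

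The known targets of capicua were examined as a list of 25 genes that it represses or that respond to ERK, of which 23 were kept. CIC lay above both controls in 6 of the 23, below both in 11 and between them in 6, against 31.4% above and 39.9% below over all kept genes. None lay more than 1 log2 unit above both, and 1 lay more than 1 unit below both, and limma called 0. The median difference was -0.09 from TRC and -0.11 from GFP, beside -0.09 and -0.06 over all kept genes. With quantile normalization the medians changed sign, to 0.03 and 0.04, with 8 members above and 7 below both controls. Over all kept genes, the median of CIC minus the mean of both controls also changed sign, from -0.078 to 0.021. The sign of the list's medians thus depends on the scaling.

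Among the ETS factors, Etv1 was at 40.2 FPKM in TRC, 82.6 in GFP and 112 in CIC, above both controls by a smaller difference of 0.43. Etv4 was at 44.6, 27.7 and 46.6 FPKM, only 0.06 above TRC, and Etv5 at 218, 348 and 268 FPKM lay between the controls. Etv1, Etv4 and Etv5 were therefore within 1 log2 unit of at least 1 control each. Among the Sprouty inhibitors of receptor signalling, Spry4 was at 31.1, 32.0 and 62.4 FPKM, with close controls and a smaller difference of 0.94, the largest of the list on the higher side. Spry2 was at 50.8, 94.5 and 101 FPKM, whereas Spry1 was at 60.6, 103 and 32.8 FPKM, below both controls. The ERK phosphatase Dusp6 was at 202, 123 and 94.1 FPKM, Dusp4 at 47.9, 93.5 and 50.8, and Dusp5 at 7.57, 5.89 and 2.32. Dusp5 was the member more than 1 unit below both (smaller difference -1.05). The fitted difference of Spry4 and Dusp5 did not pass limma's test. Among the related Spred inhibitors, Spred1 was at 71.0, 106 and 130.2 FPKM, while Spred2 was at 55.9, 52.9 and 49.1.

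To show the sequence context, promoters were searched for the capicua octamer (TGAATGAA, TGAATGGA, TCAATGAA or TCAATGGA, on either strand) in RefSeq windows of 300 bases, from 250 before to 50 after the gene start (build GRCm38.p6). Of 9630 kept genes with a promoter in the table, 2.86% held it. The share was 4.62% of 346 higher genes, 3.33% of 540 lower genes, and 5 of 15 in the target list. The 200 bases upstream of Dusp6 (chr10:99263031-99263230, plus strand) and Spry2 (chr14:105896820-105897019, minus strand) are printed because they are feedback regulators that carry the octamer, and the CIC library lay below both controls for Dusp6 and above both for Spry2. Capitals mark the octamer, shown as its reverse complement where it matches the opposite strand.
Dusp6: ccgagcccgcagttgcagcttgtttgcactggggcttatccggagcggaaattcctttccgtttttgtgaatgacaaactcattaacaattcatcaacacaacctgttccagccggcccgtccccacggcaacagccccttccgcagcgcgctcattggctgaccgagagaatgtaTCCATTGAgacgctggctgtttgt
Spry2: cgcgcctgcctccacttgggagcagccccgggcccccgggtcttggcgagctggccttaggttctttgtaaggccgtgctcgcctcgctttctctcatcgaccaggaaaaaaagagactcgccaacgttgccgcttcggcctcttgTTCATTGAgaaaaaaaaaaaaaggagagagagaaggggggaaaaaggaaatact
A match describes the letters of the window and not occupancy by capicua.

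Partners and regulators of capicua formed another list, of 18 genes, all kept. CIC lay above both controls in 4 and below both in 9, against 31.4% and 39.9% of all kept genes. More than 1 log2 unit lower were 3, against 5.65% of kept genes, namely Sin3a, Rps6ka1 and the targeted gene Cic itself. Sin3a, the scaffold of a histone deacetylase complex, was at 24.1, 22.2 and 10.3 FPKM in TRC, GFP and CIC. Rps6ka1, the ERK-activated kinase RSK1, was at 30.2, 38.8 and 8.02 FPKM. The ataxin-1 relative Atxn1l was at 11.6, 16.0 and 12.6 FPKM, between the controls, and the SWI/SNF subunit Arid1a was at 21.1, 16.8 and 33.7 FPKM, above both. The median difference of the list was -0.41 from TRC and -0.24 from GFP.

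Genes of the integrated stress response lay higher in the CIC library. This response couples amino acid shortage and endoplasmic reticulum (ER) stress to the transcription factor ATF4, which induces genes of amino acid supply and further stress factors. Of 24 listed genes, all kept, CIC lay above both controls in 14 and below both in 3, with 10 above and 1 below by more than 1 log2 unit. Over all kept genes the shares were 31.4% and 39.9%, and 3.63% and 5.65% beyond 1 log2 unit. Counts of the proliferating lists that follow are to be read against the same shares. The median difference was 1.22 from TRC and 0.74 from GFP, and limma called 0.

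Atf4 itself was at 129 FPKM in TRC, 125 in GFP and 465 in CIC. After Atf3 and Ddit3, described above, came Trib3, a pseudokinase induced by ATF4 and CHOP, at 1.59, 32.9 and 202 FPKM. Asns (asparagine synthetase) was at 33.4, 58.0 and 202 FPKM, Shmt2 (mitochondrial serine metabolism) at 109, 167 and 441, and Chac1 (glutathione degradation) at 0.629, 10.03 and 29.9. In each case CIC was the highest of the 3 libraries, and GFP lay above TRC in each of these except Atf4. The chaperones Hspa5 (BiP) at 254, 129 and 191 FPKM and Calr (calreticulin) at 386, 146 and 155 FPKM lay between the controls. Hsp90b1 (470, 354 and 208 FPKM) and Sdf2l1 (12.5, 11.7 and 1.66 FPKM), both of the ER folding machinery, lay below both. The list members of the ER chaperone kind were chosen for naming after their values were seen.

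Promoters of this list were searched for the core TGATGNAA of the C/EBP-ATF composite element, a motif chosen after the values were seen. It was found on either strand in 2.53% of kept genes with a promoter, in 7 of 23 listed genes and in 5 of the 10 more than 1 log2 unit above both controls. Among all 346 higher genes with a promoter, 22 held it (6.36%), and among 540 lower genes 13 (2.41%). The 200 upstream bases of Chac1 (chr2:119351042-119351241, plus strand) and Atf3 (chr1:191183334-191183533, minus strand), from RefSeq on GRCm38.p6, show the core in capitals as its reverse complement. They are printed because both genes lay more than 1 log2 unit above both controls.
Chac1: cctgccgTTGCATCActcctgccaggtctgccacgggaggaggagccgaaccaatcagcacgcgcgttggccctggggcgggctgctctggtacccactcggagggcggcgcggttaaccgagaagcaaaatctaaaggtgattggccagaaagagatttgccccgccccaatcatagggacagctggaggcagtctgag
Atf3: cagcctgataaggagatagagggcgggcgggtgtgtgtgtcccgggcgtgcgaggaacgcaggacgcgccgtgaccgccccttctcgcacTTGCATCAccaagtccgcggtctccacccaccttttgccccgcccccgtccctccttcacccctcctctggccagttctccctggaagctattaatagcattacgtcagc

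Interferon-stimulated genes, which are induced by interferons and act against viruses, also lay higher. Of 31 kept genes, CIC lay above both controls in 24 and below both in 1, and 14 were above both by more than 1 log2 unit and 0 below. Among all kept genes 31.4% lay above both and 39.9% below both, with 3.63% and 5.65% beyond 1 log2 unit. The median difference was 1.90 from TRC and 0.60 from GFP, and GFP itself lay a median of 0.99 above TRC. The mean log2 level of the list was 2.77 in TRC, 3.98 in GFP, 4.68 in CIC and 3.78 in FUBP1. The controls thus differed from each other, TRC being the lowest of the 4 libraries, and limma called 0 of the list.

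Usp18, which removes ISG15 from proteins and damps interferon signalling, was at 6.70, 22.1 and 116 FPKM in TRC, GFP and CIC. Ifi44 was at 1.02, 5.805 and 33.3 FPKM, and the guanylate-binding protein Gbp3 at 9.14, 10.6 and 54.3. Stat2, a transcription factor activated by type I interferon, was at 9.56, 11.2 and 17.5 FPKM. These genes were lowest in TRC and highest in CIC. Members did not all do so. Psmb8 and Psmb9, subunits of the immunoproteasome, were at 28.9 and 13.0 FPKM in GFP but at 3.73 and 1.26 in CIC, near their TRC levels of 3.40 and 1.76. Ifitm3, a membrane protein that blocks virus entry, was at 147, 2963 and 1951 FPKM, and B2m, the light chain of MHC class I, at 176, 920 and 658, between the controls.

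The core of the interferon-stimulated response element (GAAA and GAAA separated by any 2 bases), again chosen after the values were seen, was present on either strand in 3.56% of all kept genes with a promoter and in 14 of 24 listed genes with one. It was found in 6 of 9 of those more than 1 log2 unit above both controls and in 8 of 15 of the others. The upstream bases of Isg15 (chr4:156200819-156201018, minus strand), encoding a ubiquitin-like modifier, and Ifit1 (chr19:34640689-34640888, plus strand), a sensor of viral RNA, show the matches in capitals. The 3 matches in Isg15 overlap in 1 run, and both matches in Ifit1 appear as reverse complements. They are printed because they hold 3 and 2 matches, and the genes were at 20.1, 72.0 and 321 FPKM for Isg15 and 4.45, 9.42 and 39.4 FPKM for Ifit1 in TRC, GFP and CIC.
Isg15: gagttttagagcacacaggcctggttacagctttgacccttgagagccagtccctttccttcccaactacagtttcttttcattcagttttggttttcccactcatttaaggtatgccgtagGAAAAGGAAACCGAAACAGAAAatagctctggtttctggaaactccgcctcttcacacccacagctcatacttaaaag
Ifit1: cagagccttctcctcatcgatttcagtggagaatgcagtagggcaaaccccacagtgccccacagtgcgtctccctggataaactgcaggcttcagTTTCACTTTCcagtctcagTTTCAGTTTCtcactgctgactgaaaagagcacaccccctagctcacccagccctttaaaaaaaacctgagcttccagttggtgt

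Genes of DNA replication lay lower in the CIC library. All 34 listed genes were kept, and CIC lay below both controls in 31 and above both in 0, with 9 below by more than 1 log2 unit. Of all kept genes 39.9% lay below both, 31.4% above both and 5.65% below both by that margin. All 34 lay below TRC and 31 below GFP, with median differences of -1.33 and -0.57. The controls differed as well, with a median of GFP minus TRC of -0.71, larger in size than that of CIC minus GFP. The largest smaller difference was that of E2f1, the transcription factor of S-phase entry, at 24.1 FPKM in TRC, 25.2 in GFP and 5.70 in CIC. The cyclin Ccne2 was at 9.88, 3.81 and 0.617 FPKM, the helicase subunit Mcm6 at 80.6, 64.6 and 21.2, and the thymidine kinase Tk1 at 106, 29.2 and 9.69. CIC was the lowest of the 3 libraries for each. Counts of members under quantile normalization were 30 below both and 1 above both.

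Mitotic genes did not follow. Of 32 kept, 6 lay above both controls and 1 below both, none by more than 1 log2 unit, and 25 lay between. The list lay a median of 0.51 below TRC and 1.04 above GFP. Its direction thus depends on the control. Ndc80, a kinetochore protein, was at 24.7, 12.04 and 48.9 FPKM in TRC, GFP and CIC, and Cdca8, of the chromosomal passenger complex, at 71.9, 21.0 and 109, both above both controls. Cdk1 (125, 61.8 and 46.0 FPKM) was the member below both. Among CDK inhibitors, Cdkn1a (p21) was at 67.5, 143 and 398 FPKM, and Cdkn2b (p15) at 59.2, 13.2 and 0.0523 FPKM. Of 9 kept genes of CDK inhibitors and Rb relatives, 4 lay above and 3 below both controls. For this list and the mitotic one, the shares over all kept genes were 31.4% above and 39.9% below both.

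Glycolytic and hypoxia-responsive genes lay lower. Of 24 kept, CIC lay below both controls in 18 and above both in 4, with 8 below and 0 above by more than 1 log2 unit. The shares of all kept genes were 39.9% and 31.4%, and 5.65% and 3.63% beyond 1 log2 unit. The median difference was -0.88 from TRC and -0.99 from GFP. The median of GFP minus TRC was 0.03, though single members differed between the controls in both directions. Pdk1, a pyruvate dehydrogenase kinase, was at 9.998, 10.7 and 1.70 FPKM in TRC, GFP and CIC. Egln3, an oxygen-sensing prolyl hydroxylase, was at 19.1, 45.4 and 4.09 FPKM, and the phosphofructokinase subunit Pfkl at 90.2, 48.5 and 11.98. Ankrd37 was at 6.28, 4.77 and 0.629 FPKM. CIC lay below the range of the controls for each of these. Among the list's most abundant genes, Eno1 (enolase) was at 981, 543 and 176 FPKM and Ldha (lactate dehydrogenase) at 921, 700.4 and 318. Vegfa (52.1, 160.1 and 150.2 FPKM) lay between the controls, and Aldoc (28.0, 8.06 and 54.4 FPKM) above both. limma called 0 of the list.

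Cholesterol synthesis genes lay lower in CIC than in TRC but not, by their median, than in GFP. Their mean log2 level was 6.19 in TRC, 6.11 in the library labelled FUBP1, 4.64 in GFP and 4.70 in CIC. All 22 kept genes lay below TRC (median -1.41), but the median difference from GFP was 0.05. CIC lay below both controls in 10 and above both in 0, against 39.9% and 31.4% of all kept genes.

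**Figure D3:**
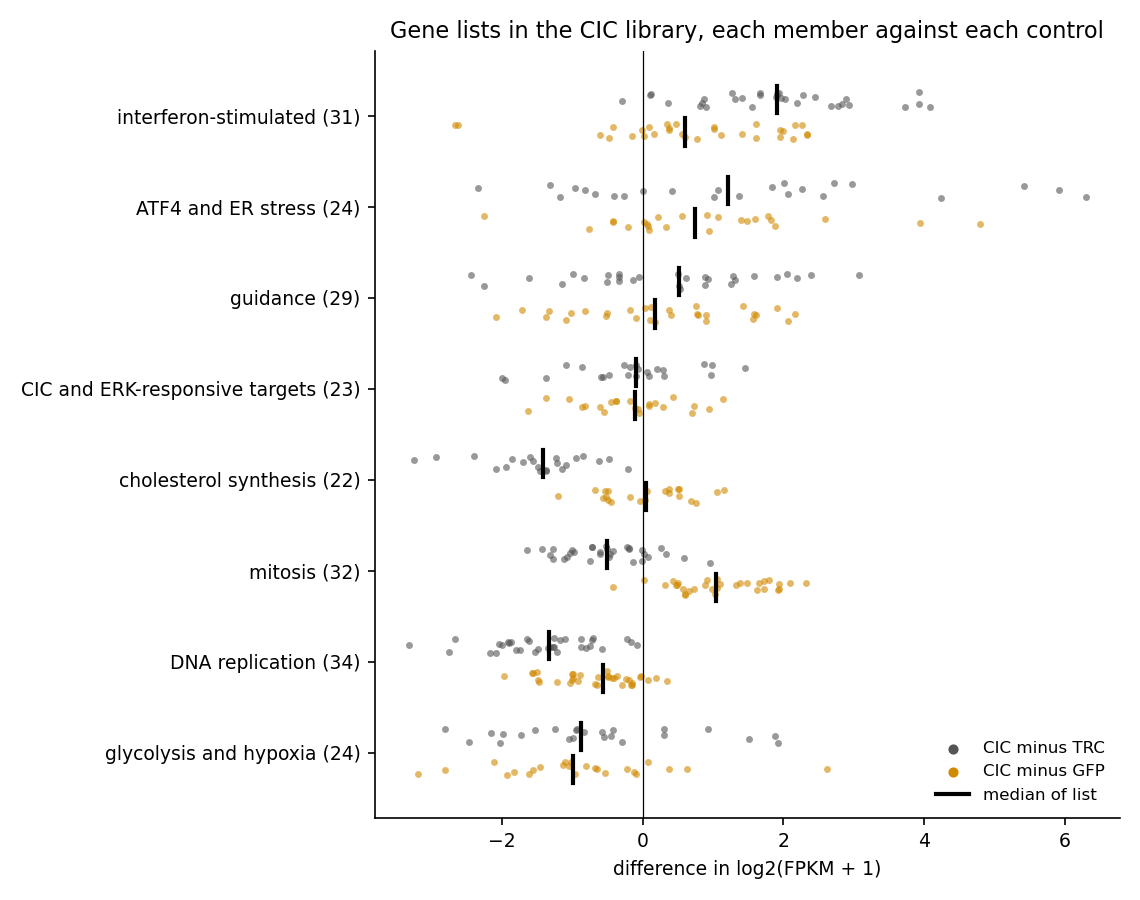
Difference of the CIC library from TRC (grey) and from GFP (orange) in log2(FPKM + 1) for each kept member of 8 gene lists, with list sizes in parentheses and medians as black bars. Both medians lie above 0 for interferon-stimulated (1.90 and 0.60) and ATF4 and ER stress genes (1.22 and 0.74) and below 0 for DNA replication (-1.33 and -0.57) and glycolysis and hypoxia (-0.88 and -0.99), while mitosis changes side with the control (-0.51 and 1.04).

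Members of the matrix lists lay on both sides of the controls. Their counts stand beside 31.4% above and 39.9% below, and 3.63% and 5.65% beyond 1 log2 unit, over all kept genes. Of 22 kept genes of collagens and their processing, 7 lay above both controls and 12 below both, with 3 above and 4 below by more than 1 log2 unit. The limma test called Serpinh1 alone. Besides Serpinh1, Col18a1 (a basement membrane collagen) was at 134, 143 and 16.4 FPKM in TRC, GFP and CIC, Col6a1 at 6.22, 7.57 and 0.0823, and Fkbp10, another procollagen-folding protein, at 3.07, 28.3 and 0.0392. The fibrillar collagens Col11a1 (5.78, 0.786 and 14.9 FPKM), Col5a2 (9.38, 0.223 and 22.4) and Col5a1 (11.3, 10.99 and 25.01) lay above both. Of 31 kept integrins and matrix ligands, 15 lay above and 10 below both. Tnc (tenascin-C, an adhesion-modulating glycoprotein) was at 14.1, 192 and 1249 FPKM and Vcan (versican, a large proteoglycan) at 24.8, 23.1 and 103. Spp1 and Sparcl1, given above, lay at the other end of that list.

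Metalloproteinases and their inhibitors were likewise split, with 10 of 21 kept genes above both controls, 5 below both, and 4 above and 3 below by more than 1 log2 unit. The 4 higher genes were Adamts5, Adamts1, the inhibitor Timp4 (4.37, 2.94 and 24.8 FPKM in TRC, GFP and CIC) and Adam12 (8.29, 7.21 and 42.8). The 3 lower ones were Mmp14, Mmp17 (2.45, 3.83 and 0.327 FPKM) and Adamts4 (59.2, 64.1 and 22.5). Of 9 kept cathepsins, 3 were more than 1 unit below both controls and 1 above. Ctsf lay beside Ctsz in this, at 3.10, 18.1 and 0.0179 FPKM, and Ctsh at 7.23, 9.02 and 2.84, while Ctsc was at 10.01, 5.59 and 30.01. Of 30 other lysosomal proteins, 9 lay above both controls, 6 below both and 15 between, and none beyond both by 1 log2 unit.

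Guidance molecules and their receptors, which steer axons and migrating cells, lay above both controls in 14 of 29 kept genes and below both in 9, with 7 above and 1 below by more than 1 log2 unit. The shares to read these against are 31.4% above and 39.9% below, and 3.63% and 5.65% beyond 1 log2 unit, over all kept genes. The secreted semaphorins Sema3c (5.27, 11.7 and 51.9 FPKM in TRC, GFP and CIC) and Sema3a (6.77, 12.7 and 39.7) were among the 7, as were the ephrin receptors Epha5 (0.199, 0.111 and 3.96) and Epha4 (0.121, 0.370 and 4.14). Ephb2, another ephrin receptor, was the lower one, at 30.8, 27.2 and 5.65 FPKM. Of 15 kept glutamate and GABA receptor genes, 8 lay above and 2 below both controls, with 4 and 2 beyond 1 log2 unit. Among the 4 were Gabra2, Gabrg1 and the kainate receptor subunit Grik3 (0.278, 0.0213 and 4.71 FPKM). The lower 2 were the AMPA receptor subunit Gria1 (2.56, 4.03 and 0.743 FPKM) and the NMDA receptor subunit Grin2a (3.83, 2.44 and 0.0343).

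Markers of the progenitor and glial state lay on both sides of the controls. Beside their counts stand 31.4% above and 39.9% below both, and 3.63% and 5.65% beyond 1 log2 unit, over all kept genes. Of 21 kept progenitor markers, 9 lay above both controls and 5 below both, 2 in each direction by more than 1 log2 unit. Sox2, a core progenitor factor, was at 116, 182 and 480.4 FPKM in TRC, GFP and CIC, and the Notch effector Hes1 at 16.3, 26.6 and 59.0. Sox1, another progenitor factor of the same family, was at 8.78, 7.32 and 1.78 FPKM, and the nuclear receptor Nr2e1 at 6.45, 8.03 and 2.65. Of 13 kept genes of the oligodendrocyte lineage, 5 lay above and 6 below both. Pdgfra, the growth factor receptor of oligodendrocyte precursors, was at 28.6, 25.9 and 5.17 FPKM and the lineage factor Olig1 at 910.4, 1024 and 382, while Ptprz1, a receptor phosphatase, was at 54.5, 50.8 and 173. Among the growth factor receptors upstream of ERK, Met was at 28.4, 17.4 and 3.67 FPKM, Fgfr1 at 65.8, 97.1 and 48.8, and Egfr at 7.71, 29.5 and 32.1. Of 21 kept astrocyte genes, 9 lay above and 6 below both, from S100b (0.284, 0.403 and 9.16 FPKM) to Sparcl1 and Aldh1l1 (89.6, 43.7 and 3.28). No list apart from the collagens had a member called by limma.

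The differentiating libraries share none of these samples. The labels do not say whether CIC and CIC-D came from separate transductions or cultures, so the states cannot be taken as independent checks on each other. In the differentiating state CIC-D lay more than 1 log2 unit above both 7 and GFP-D in 128 kept genes (1.07%) and below both in 211 (1.76%). Above both controls in both states were 53 genes, which is 12.2% of the 434 and 41.4% of the 128. Below both in both states were 101, which is 14.9% of the 676 and 47.9% of the 211. At any size, 57.4% of the 434 lay above both differentiating controls, against 30.8% of all kept genes, and 57.2% of the 676 lay below both, against 34.1%. The median CIC-D difference was 0.35 for the higher genes and -0.35 for the lower ones. More than 1 log2 unit beyond both controls on opposite sides in the 2 states lay 1 of the higher genes, Igfbpl1, and 2 of the lower ones, Srxn1 and Tmem171.

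Of the 12 genes farthest above, 8 lay above both controls in CIC-D, 3 of them by more than 1 log2 unit, and 1 lay below both. St3gal6 was at 4.93 FPKM in 7, 0.254 in GFP-D and 21.0 in CIC-D, Fam5c at 1.38, 0.0162 and 15.7, and Gap43 at 1.28, 0.273 and 4.13. Ddit3 was at 54.7, 81.1 and 115 FPKM, so its controls were higher and CIC-D lower than in the proliferating state. Atf3, at 5.67, 5.71 and 4.39 FPKM, was the gene below both. Of the 12 farthest below, 11 lay below both controls in CIC-D, 8 of them by more than 1 log2 unit. Serpinh1 was at 88.2, 93.5 and 0.207 FPKM, Ctsz at 67.5, 150 and 0.393, Mmp14 at 46.3, 34.5 and 0.0855 and Lgals3 at 105, 47.4 and 1.55. Adh7 (59.2, 736 and 665 FPKM) was the exception, between its controls, and Cx3cl1 (172, 115 and 108) lay only slightly under the nearer one. Serpinh1 was again called by limma (log2 difference -6.25, SE 0.32, adjusted p = 0.0398), with Nfe2l1 the other of 2 genes called lower (0.0167%). Nfe2l1, a stress-responsive transcription factor, was listed at 0 in CIC-D but at 179 FPKM in CIC, 166 in 7 and 213 in GFP-D, and such a 0 can be a failed estimate. At an unadjusted p under 0.05 there were 313 genes in the differentiating contrast.

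The same lists were counted in CIC-D, where 30.8% of kept genes lay above both controls and 34.1% below both. DNA replication genes lay below both controls in 15 of 34 and above both in 5, none by more than 1 log2 unit. Mcm6, for example, was at 5.56, 3.72 and 2.21 FPKM in 7, GFP-D and CIC-D. Interferon-stimulated genes lay above both in 18 of 31, with 1 beyond 1 log2 unit, and their median was 0.24 above 7 but 1.77 above GFP-D. Stress response genes lay above both in 14 of 24, none beyond 1 log2 unit. Glycolytic genes lay below both in 6 of 24 and above both in 2, with medians of -0.65 from 7 and 0.28 from GFP-D. The difference of the CIC effect between states, tested by the interaction term in limma, called 0 genes (0.0%), with 512 at an unadjusted p under 0.05 and a smallest adjusted p of 0.345.

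**Figure D4:**
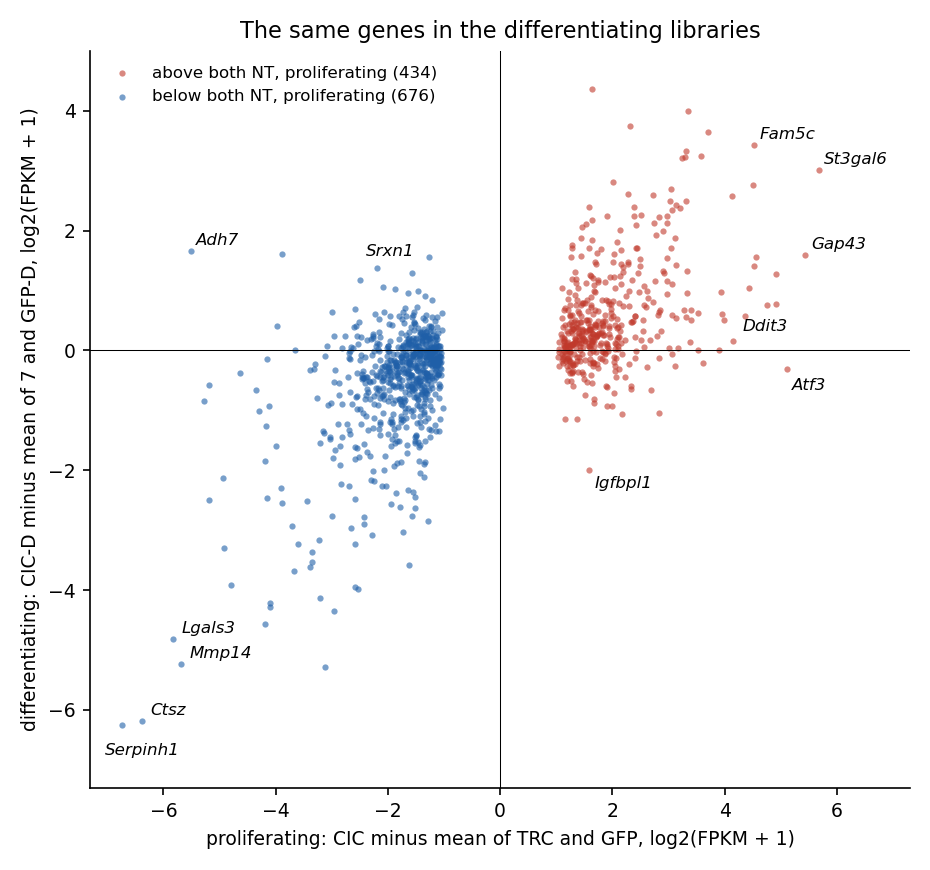
Fitted CIC difference in the proliferating state (x axis) against that in the differentiating state (y axis), both in log2(FPKM + 1), for the 434 genes above (red) and 676 below (blue) both proliferating controls. Serpinh1, Ctsz, Mmp14 and Lgals3 lie far below 0 on both axes, St3gal6 and Fam5c above 0 on both, and Atf3 near 0 on the y axis.

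Clustered gamma protocadherins, cell-surface proteins of which single cells express different subsets, showed opposite extremes. Of 16 kept members, 3 lay more than 1 log2 unit above both controls and 3 more than 1 unit below. The shares over all kept genes were 3.63% and 5.65%. Pcdhga10 was at 0.0715 FPKM in TRC, 0.0424 in GFP and 12.8 in CIC, and at 1.68, 0.0210 and 19.7 in 7, GFP-D and CIC-D. Pcdhgb2 (3.33, 10.8 and 30.9 FPKM) and Pcdhga1 (1.03, 2.78 and 6.65) were the other 2 higher members. Pcdhgb1 (5.52, 10.1 and 0.476 FPKM) and Pcdhgb8 (3.38, 3.54 and 0.300) were among the lower ones. The first exons of the cluster share downstream exons, so their FPKM values are uncertain, and 3 members lay above and 3 below by that margin in CIC-D as well.

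Genes of the Y chromosome lay higher in the CIC library. All 4 kept Y-linked genes lay above both controls by more than 1 log2 unit in CIC. Eif2s3y was at 4.55 FPKM in TRC, 9.33 in GFP, 32.1 in CIC and 22.6 in FUBP1, and Ddx3y at 3.28, 4.93, 42.5 and 13.2. Kdm5d was at 0.981, 1.19, 9.10 and 4.31 FPKM, and Uty at 1.20, 1.63, 10.7 and 4.18. In the differentiating state Ddx3y was at 14.4 FPKM in 7, 4.58 in GFP-D, 33.0 in CIC-D and 3.93 in FUBP1-D. CIC and CIC-D thus held the highest levels of Ddx3y in their states, and a difference in the animals or cells behind the libraries cannot be told apart from the hairpin.

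Chromosome 10 had the lowest median against TRC and the largest share of genes below both controls. Over its 602 kept genes the median difference was -0.41 from TRC and -0.30 from GFP, and 54.5% of them lay below both controls, against 39.9% of all kept genes. More than 1 log2 unit below both were 63 (10.5%, against 5.65%). Chromosome 7 came next in both shares, with 47.4% of its 908 kept genes below both and 8.59% by more than 1 log2 unit. For the other chromosomes apart from Y, the medians ran from -0.13 to 0.05 against TRC and from -0.35 (chromosome 7) to 0.24 (chromosome 14) against GFP. On those 2 chromosomes GFP itself differed from TRC, by medians of 0.24 and -0.43. In CIC-D the chromosome 10 median was -0.24 from 7 and -0.23 from GFP-D, and in the library labelled FUBP1 it was -0.21 from TRC. Without chromosomes 10 and Y, 401 genes lay above and 613 below both controls by more than 1 log2 unit. The part of chromosome 10 in the gene lists above was not tested.

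**Figure D5:**
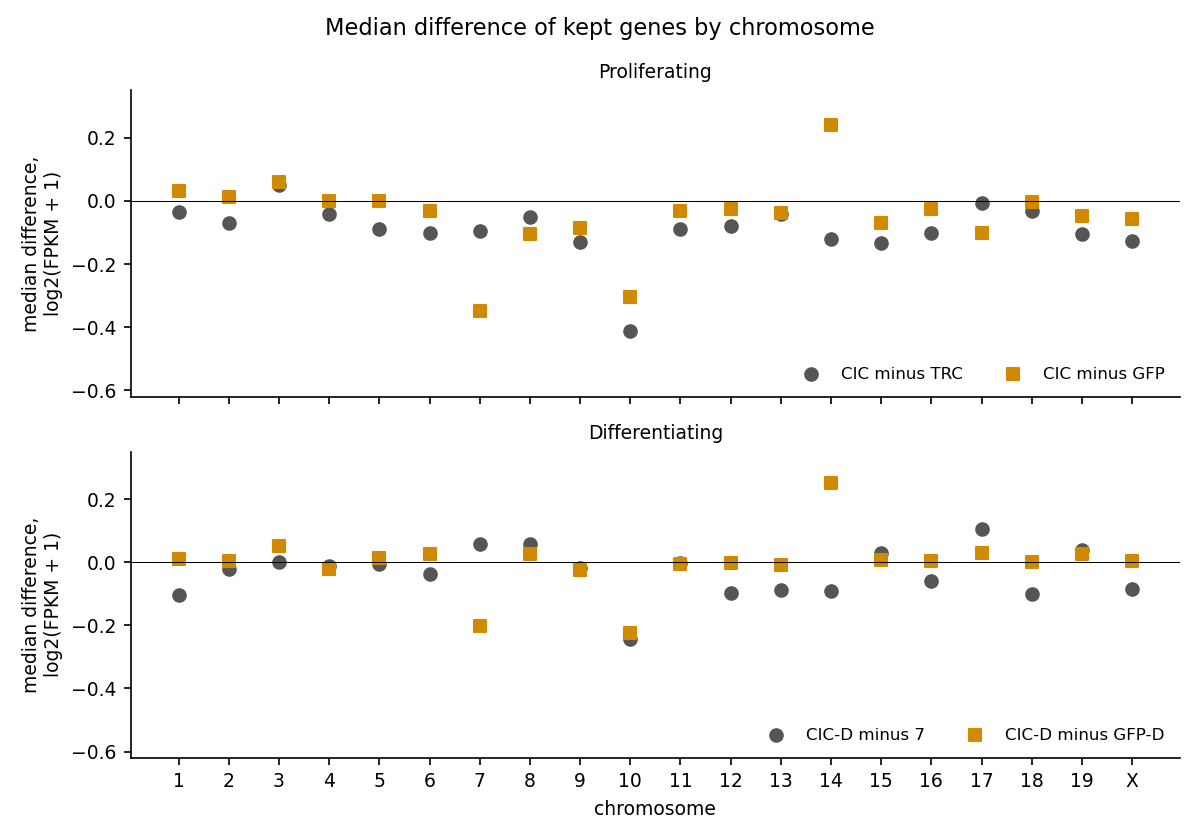
Median difference of kept genes in log2(FPKM + 1) by chromosome (Y left out), for CIC minus TRC and minus GFP (top) and CIC-D minus 7 and minus GFP-D (bottom). Chromosome 10 lies below 0 in all 4 comparisons, at -0.41, -0.30, -0.24 and -0.23, while chromosomes 7 and 14 leave 0 mainly against GFP and GFP-D.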

How the data were processed

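RNA was measured by RNA sequencing of TruSeq libraries made from 1 ug of total RNA, per the labels' protocols. The authors deposited FPKM values, 1 per gene and library, for 8 libraries. Reads were handled with Cufflinks 2.1.1, TopHat2 2.0.11, cutadapt and bcl2fastq 2.17 on build mm9, per the submitters' processing notes. Which settings, gene annotation and strand option they used is not given in the sources used here. Thus overlapping and closely related genes are uncertain. The protocol text names FUBP1 hairpins only, and the CIC groups rest on the sample labels.

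FPKM values were used without rescaling as log2(FPKM + 1), which understates differences of low genes. A row was kept if 2 libraries or more reached 1 FPKM. Fragment counts could not be recovered. Low values, up to 0.2 FPKM, moved in steps whose most frequent ratio to TRC was 0.946 in GFP and 0.953 in CIC, but only 17.2% of the compared rows lay within 5% of it. Tests used limma 3.58.1 in R 4.3.3 on 6 group means, with an empirical Bayes mean-variance trend, prior df 3.37, two-sided p-values and Benjamini-Hochberg adjustment over 11968 rows at 0.05. The script was tested on simulated data. Promoter windows come from RefSeq (GRCm38.p6), and 11948 kept rows matched a gene.

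Named were Cic, the 12 kept genes with the largest smaller difference in each direction (at least 5 FPKM in CIC, or in both controls), up to 4 members per list by that measure, every capicua target and partner, genes called by limma, and genes listed at 0 in 1 of the 3 libraries while the others exceeded 5 FPKM. Genes named beyond this rule were chosen after their values were seen. Some genes that the rule names are not reported here. The 32 gene lists hold 732 symbols. Members and lists were chosen with earlier results of these data known. Alternatives covered the pseudocount, the filter, 2 rescalings, the margin, the model, a block for the shared name GFP and each NT library left out.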

Additional observations from a re-analysis of the deposited data

Results flagged for a closer look

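Of the 434 higher genes, 58 lay below both differentiating controls in CIC-D at any size (13.4%), and of the 676 lower genes, 93 lay above both (13.8%). Described here are the 3 that lay more than 1 log2 unit beyond both controls in each state, Igfbpl1, Srxn1 and Tmem171, and Atf3, which was already named above. The interaction term of limma passed the threshold for none of these 4 (adjusted p = 0.998 for each). The interaction is the proliferating minus the differentiating log2 difference. Atf3 had an interaction of 5.42 (SE 0.60), with smaller differences of 4.79 in the proliferating and -0.31 in the differentiating state. For Igfbpl1, related to insulin-like growth factor binding proteins, it was 3.58 (SE 0.91), with levels of 0.206, 0.171 and 2.56 FPKM in TRC, GFP and CIC and 21.3, 7.50 and 2.46 in 7, GFP-D and CIC-D. For Srxn1, sulfiredoxin, an antioxidant enzyme, it was -3.58 (SE 0.55), with 35.7, 43.8 and 7.84 FPKM in TRC, GFP and CIC and 35.8, 54.9 and 117 in 7, GFP-D and CIC-D. For Tmem171 it was -2.83 (SE 0.73), with 8.17, 8.77 and 2.93 FPKM and then 0.577, 2.08 and 5.53.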

How the results depend on the processing

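With 1 CIC library per state, counts beyond both controls describe these libraries, and fold changes of genes near 0 depend on the pseudocount. Replicate numbers follow deposition order and pair nothing, but GFP and GFP-D share a name, and their deviations from the other NT library correlated at 0.347 across genes. A replicate block for that name, added after seeing the data, leaves 1 residual degree of freedom. With the block the limma counts were 24 (7 higher, 17 lower) in the proliferating contrast, the earlier 1 gene among them, 3 in the differentiating contrast and 0 for the interaction, and Cic had an adjusted p of 0.16. Against 434 higher and 676 lower genes, a pseudocount of 0.1 FPKM gave 1162 lower and a pseudocount of 5 FPKM 246 and 256. A margin of 0.5 log2 units gave 1262 and 1892, a margin of 2 gave 86 and 115, and leaving out TRC or GFP gave 842 to 986 higher and 1454 to 1482 lower. Genes beyond both controls in both states numbered 53 and 101. They were 85 and 251 with a pseudocount of 0.1, 19 and 27 with 5, and 57 to 128 and 121 to 171 with 1 NT library left out, the highest of each without library 7. The limma count of 1 in the proliferating contrast became 0 with a pseudocount of 5, with the 3 proliferating libraries alone, without the trend and without any 1 NT library, 13 in a model with additive terms for state and hairpin, and 227 (197 higher) without the filter, where 20793 rows were tested. The differentiating count of 2 became 0 with a pseudocount of 5 and without any 1 NT library, 1 with median-of-ratios scaling and 208 without the filter. The interaction count of 0 became 317 without the filter.

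The median of the capicua target list against the mean of both controls was -0.135. It was -0.147 and -0.0573 with pseudocounts of 0.1 and 5, -0.0732 without the filter and with a filter at 5 FPKM, -0.0143 with quantile normalization, -0.105 with median-of-ratios scaling and -0.106 to -0.0921 without TRC or GFP. For glycolysis and hypoxia it was -0.82, -0.627 with quantile normalization and -0.995 to -0.881 without a control, and for ATF4 and ER stress 0.784 and 0.739 to 1.22. Mitosis (1.04 to -0.51) and cholesterol synthesis (0.0455 to -1.41) changed sign with the control left out. The cause of these shifts was not tested. For the 27 named genes, none of 213 alternative values reversed and 64 moved by more than the spread between controls. Most of these genes were chosen because they lay far beyond both controls. Leaving out a control or changing the pseudocount cannot reverse such a gene, so the lack of reversals is no check on them.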

Other observations

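Pla2g4a and Ptgs2, which encode enzymes of prostaglandin synthesis and were in no list, lay next to each other on chromosome 1 and high in the CIC library. Other enzymes of that pathway were not counted. Pla2g4a, the cytosolic phospholipase A2 that releases arachidonic acid (151676752 to 151808414, mm9), was at 9.06 FPKM in TRC, 1.97 in GFP, 94.4 in CIC and 8.90 in FUBP1. Ptgs2, the inducible cyclooxygenase COX-2 (151947254 to 151955142), was at 0.182, 2.49, 35.2 and 0.163 FPKM. In the differentiating state Pla2g4a was at 9.25 FPKM in 7, 1.03 in GFP-D and 26.3 in CIC-D, whereas Ptgs2 was at 0.269, 0.276 and 0.416. Both genes were chosen after their values were seen, and neither passed limma's test in the proliferating contrast (adjusted p = 0.31 for Pla2g4a and 0.21 for Ptgs2).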
